A study of Mus musculus with 15 samples.

Results

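The 10 genes described here encode the proteins that fold interphase and mitotic chromosomes and the sheet under the inner nuclear membrane: the insulator protein CTCF (Ctcf), the cohesin subunits Rad21, Smc1a and Smc3, the condensin subunits Smc2 and Smc4, the lamins Lmnb1, Lmnb2 and Lmna, and the lamin B receptor Lbr. They were chosen by name, 10 of the 21662 genes counted, and all 10 passed the filter on low counts in both experiments. RNA-seq of ribosome-depleted RNA was available for 15 samples of mouse embryonic stem cells (ESC) of a mixed 129Sv-C57Bl/6 background in 2 experiments. In the KO experiment (9 samples) wild-type cells (WT, n = 3) were set beside cells with a frameshift in Hmga1 (KO, n = 2) and beside KO cells that carry a biotin-tagged Hmga1 (Hmga1 add-back, n = 2) or Hmga2 (Hmga2 add-back, n = 2) cDNA, driven by the strong CAG promoter at 1 genomic site. In the full-deletion experiment (6 samples) a second set of wild-type cultures (WT_2, n = 3) was set beside cells that lost the whole Hmga1 coding sequence (full deletion, n = 3). Each mutant is a single clone, the samples of a group are separate cultures of 1 line, and p-values therefore measure the spread between cultures and not between clones.

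Hmga1 is a small chromatin protein whose AT-hooks bind the minor groove of short AT-rich stretches of DNA. CTCF binds DNA in a fixed orientation and stops cohesin, a ring that extrudes loops, so that domains form between convergent CTCF sites, while condensin compacts the same fibre in mitosis. Lamins and the lamin B receptor hold AT-rich, mostly silent chromatin at the nuclear rim, and embryonic stem cells are known to carry little lamin A.

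Summed counts ranged from 13465399 to 34952136 per library in the KO experiment and from 14832310 to 21708492 where the coding sequence was deleted. Hmga1 was at 10.9 to 12.3 CPM (counts scaled to library size with TMM) in the 3 full-deletion samples and at 310.4 to 357 CPM in WT_2. The frameshift leaves an RNA that can still be counted, at 217 and 96.1 CPM in KO against 464, 276 and 221 CPM in WT, and Hmga1 was at 184 and 123 CPM in the libraries labelled Hmga1 add-back, so gene counts did not set these apart from KO. Hmga2 was at 249 and 222 CPM in the Hmga2 add-back and at 12.8 to 23.8 CPM in the WT, KO and Hmga1 add-back samples without that cDNA. One library stood apart: WT_2 b had 8.78% of its counts in its 10 highest genes, against 4.67 to 5.38% in the other 5 samples of that experiment, and a TMM factor of 0.752 against 0.986 to 1.12. Results of the full deletion are therefore given with and without WT_2 b. The 10 pluripotency markers were detected in every group (summed level 4626 to 7881 CPM). Of the fibroblast genes listed as markers of feeder cells, Dcn, Lum and Postn reached at most 0.166 CPM. Others of that list were higher, with Col1a1 at up to 1.26 CPM, Thy1 at up to 11.7 CPM and Vim at up to 175 CPM.

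The promoters of Smc3 and Smc2, the members with the largest differences in the full-deletion experiment once WT_2 b was left out, and of Lmna, the member at the lowest level, are shown here as the 250 bases before the start site, 5′ to 3′ on the gene's strand, from the RefSeq models of GRCm38.p6. Capitals mark runs of at least 6 bases of only A or T, the kind of stretch that an AT-hook can contact.
Smc3, chr19:53600146-53600395, plus strand: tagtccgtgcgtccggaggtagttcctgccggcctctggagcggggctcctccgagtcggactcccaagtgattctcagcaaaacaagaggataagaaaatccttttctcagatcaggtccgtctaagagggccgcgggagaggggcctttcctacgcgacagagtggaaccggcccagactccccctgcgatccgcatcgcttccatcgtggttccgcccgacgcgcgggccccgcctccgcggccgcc
Smc2, chr4:52438971-52439220, plus strand: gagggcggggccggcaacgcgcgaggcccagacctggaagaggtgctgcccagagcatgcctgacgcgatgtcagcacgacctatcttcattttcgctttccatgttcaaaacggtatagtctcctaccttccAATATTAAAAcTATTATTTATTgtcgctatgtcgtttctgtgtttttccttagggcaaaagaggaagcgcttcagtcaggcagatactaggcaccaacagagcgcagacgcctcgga
Lmna, chr3:88493313-88493562, minus strand: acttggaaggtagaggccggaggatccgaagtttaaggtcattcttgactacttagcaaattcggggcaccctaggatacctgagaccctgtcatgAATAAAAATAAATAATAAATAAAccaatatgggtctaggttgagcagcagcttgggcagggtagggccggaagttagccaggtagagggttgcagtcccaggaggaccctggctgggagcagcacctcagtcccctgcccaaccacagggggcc

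The Smc3 promoter holds no such run, and the Smc2 promoter holds 2, the longer of 11 bases. This Lmna promoter holds 1 of 23 bases, while the other Lmna window (chr3:88503303-88503602) holds none. Of these 2 Lmna windows, the one with the longer run was chosen for display. Runs of at least 6 bases are common: counted in either strand's letters, since A and T pair, 69.6% of the 32851 RefSeq promoter windows (250 bases before to 50 after a start) hold one. A run of 11 or more bases was found in 18.1% of all windows and one of 23 or more in 1.14%. The 7 members with an entry (Ctcf, Lbr, Lmna, Lmnb2, Smc1a, Smc2 and Smc3) have 9 windows, of which 6 hold a run. Their windows are 24.7 to 47.3% A or T, Ctcf lowest and Smc2 highest, with a median of 41.7% against 47.3% for all windows. A run is a match of letters and not a binding site.

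In the NCBIM37 assembly, the build of the counts, Smc4 (chr3:68808660-68838545) and Smc2 (chr4:52452115-52501237) are 62.1 and 62.0% A or T, and 2.96 and 3.06% of 12479 tested genes with a position are richer. Smc3 (chr19:53674886-53720323), Ctcf (chr8:108160468-108206822), Rad21 (chr15:51794151-51823306) and Smc1a (chrX:148450971-148497237) lie between 58.1 and 58.8%. Lbr (chr1:183745447-183772532) is at 54.7% and Lmnb1 at 54.9%. Lmna (chr3:88285070-88313878) and Lmnb2 (chr10:80363948-80380990) are the AT-poor members at 48.4 and 44.4%. In all, 8 of 10 members lie above the median of 53.6% over all those genes. All 10 members have longer exonic sequence (3327 to 6550 bases) than the median gene tested (3284 bases), so counts were compared between members only as RPKM, reads scaled to exonic length and to library size. Smc4 and Lbr overlap small RNA genes on their own strand, and reads of those cannot be told apart from theirs.

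Per length, the SMC and cohesin genes were among the most abundant RNAs of these cells and Lmna the least of the 10. In WT the order of mean RPKM was Smc4 (175 ± 49.2, SD, n = 3), Smc3 (130.5 ± 37.8), Rad21 (125 ± 13.6), Smc1a (101 ± 30.8), Lmnb1 (94.2 ± 13.0), Smc2 (91.7 ± 21.0), Lbr (88.8 ± 12.2), Ctcf (84.4 ± 2.59), Lmnb2 (32.2 ± 1.93) and Lmna (11.8 ± 2.51). Neighbours in the first 8 places differed by less than the larger of their SDs, while Lmnb2 and Lmna were each below every value of the gene above them. Of the 13912 genes tested, 97.1% lay below Smc4, 93.5% below Ctcf, 82.5% below Lmnb2 and 63.2% below Lmna. Lmnb1 RNA was 7.96 times Lmna RNA in WT. In the other experiment it was 22.1 times Lmna RNA in WT_2, with WT_2 b included, and 15.6 times in the full deletion. The same lowest pair, Lmnb2 above Lmna, was found in all 6 groups, and Smc4, Smc3, Rad21 and Smc1a took the first 4 places in all 4 groups of the KO experiment.

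**Figure D1:**
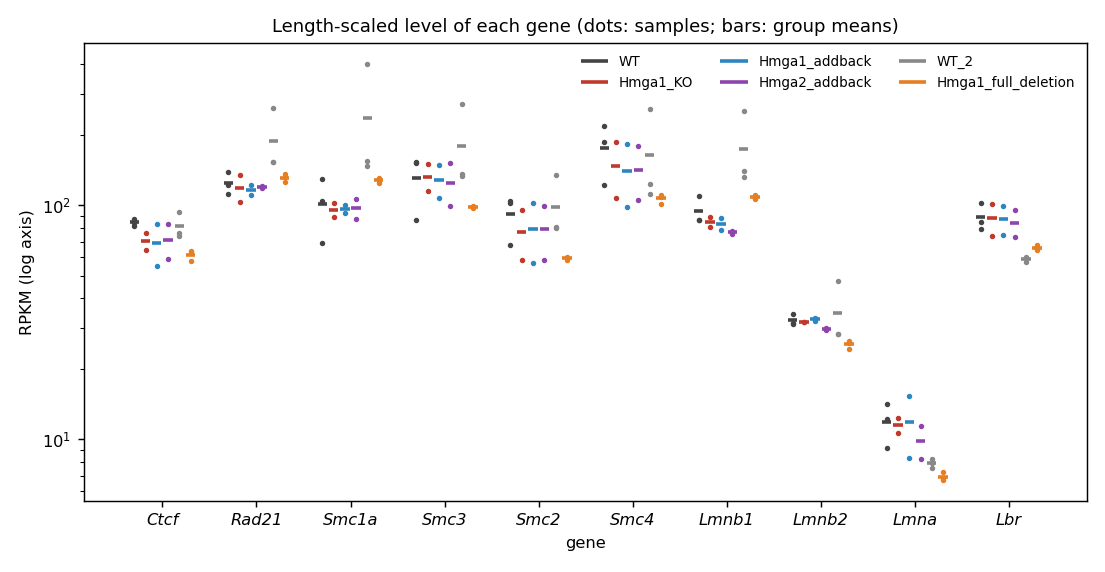
RPKM of each gene on a log axis, with 1 dot for each sample and a bar for the mean of each of the 6 groups. Lmna sits lowest, with group means from 6.93 to 11.8 RPKM, Lmnb2 next (25.5 to 34.6 RPKM), and the other 8 genes overlap one another.

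The first question was whether loss of Hmga1 by frameshift altered these genes. None of the 10 was called in KO against WT at the study's threshold (adjusted p under 0.01 and at least 2-fold, 0.0216% of all genes called), none had an adjusted p under 0.05 (0.0647% of all genes), and none had an unadjusted p under 0.05 (12.6% of all genes; edgeR). The median log2 fold change of the 10 was -0.04, and that of all genes -0.01. No other culture shares the letter of WT c, so with the batch letter in the model the KO difference rests on the a and b cultures.

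Ctcf came closest. It was at 313, 333 and 323 CPM in WT and at 246 and 290.1 CPM in KO. Both KO samples lay below all 3 WT samples, which held in this direction for 10.5% of all genes (13.0% in the other direction) and for no other member. The log2 fold change was -0.28 ± 0.14 (SE; 95% interval -0.59 to 0.04; adjusted p = 0.442, edgeR). Within batch a the KO was at 78.5% of WT and within batch b at 87.2%. The log2 value moved to -0.09 without WT a and to -0.45 without WT b.

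The cohesin genes did not follow Ctcf. Smc3, which forms the ring with Smc1a, was at 421, 734 and 743 CPM in WT and at 556 and 731 CPM in KO (log2 fold change 0.20 ± 0.13, adjusted p = 0.558, edgeR; 0.05 without WT a and 0.35 without WT b). Smc1a was at 273, 415 and 516 CPM in WT and at 354 and 408 CPM in KO (0.17 ± 0.13, adjusted p = 0.627, edgeR). In both genes the KO samples fell inside the range of WT, and the positive sign came from batch a, in which KO was at 132% of WT for Smc3 and 129% for Smc1a, against 99.5% and 98.2% in batch b. Rad21, the subunit that closes the ring, was at 442, 405 and 502 CPM in WT and at 484 and 372 CPM in KO, a difference near 0 (0.01 ± 0.12, adjusted p = 0.984, edgeR).

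For the condensin pair, KO a lay below every WT sample and KO b inside their range. Smc2 was at 442, 673 and 686 CPM in WT and at 383 and 626 CPM in KO (log2 fold change -0.16 ± 0.11, adjusted p = 0.578, edgeR). Smc4 was at 501, 764 and 899 CPM in WT and at 441 and 767 CPM in KO (-0.09 ± 0.11, adjusted p = 0.781, edgeR). In batch b the KO was at 93.0% of WT for Smc2 and 100.3% for Smc4.

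Among the lamina genes, the KO values overlapped WT for all 4. Lmnb1, which encodes lamin B1, was at 533, 532 and 671 CPM in WT and at 548 and 494 CPM in KO (log2 fold change -0.03 ± 0.11, edgeR). Lmnb2, which encodes lamin B2, was at 130.3, 118 and 117 CPM in WT and at 119.7 and 119.6 CPM in KO (-0.06 ± 0.10). Lbr, a membrane protein that binds B-type lamins and heterochromatin, was at 285, 371 and 307 CPM in WT and at 267 and 368 CPM in KO (-0.05 ± 0.10). Lmna, which encodes lamins A and C, had the widest error of the 10: it was at 40.6, 30.5 and 47.1 CPM in WT and at 35.3 and 41.0 CPM in KO (0.06 ± 0.25, 95% interval -0.52 to 0.65). Its difference had opposite signs in the 2 batches: KO stood at 86.9% of WT among the a cultures and at 135% among the b cultures.

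**Figure D2:**
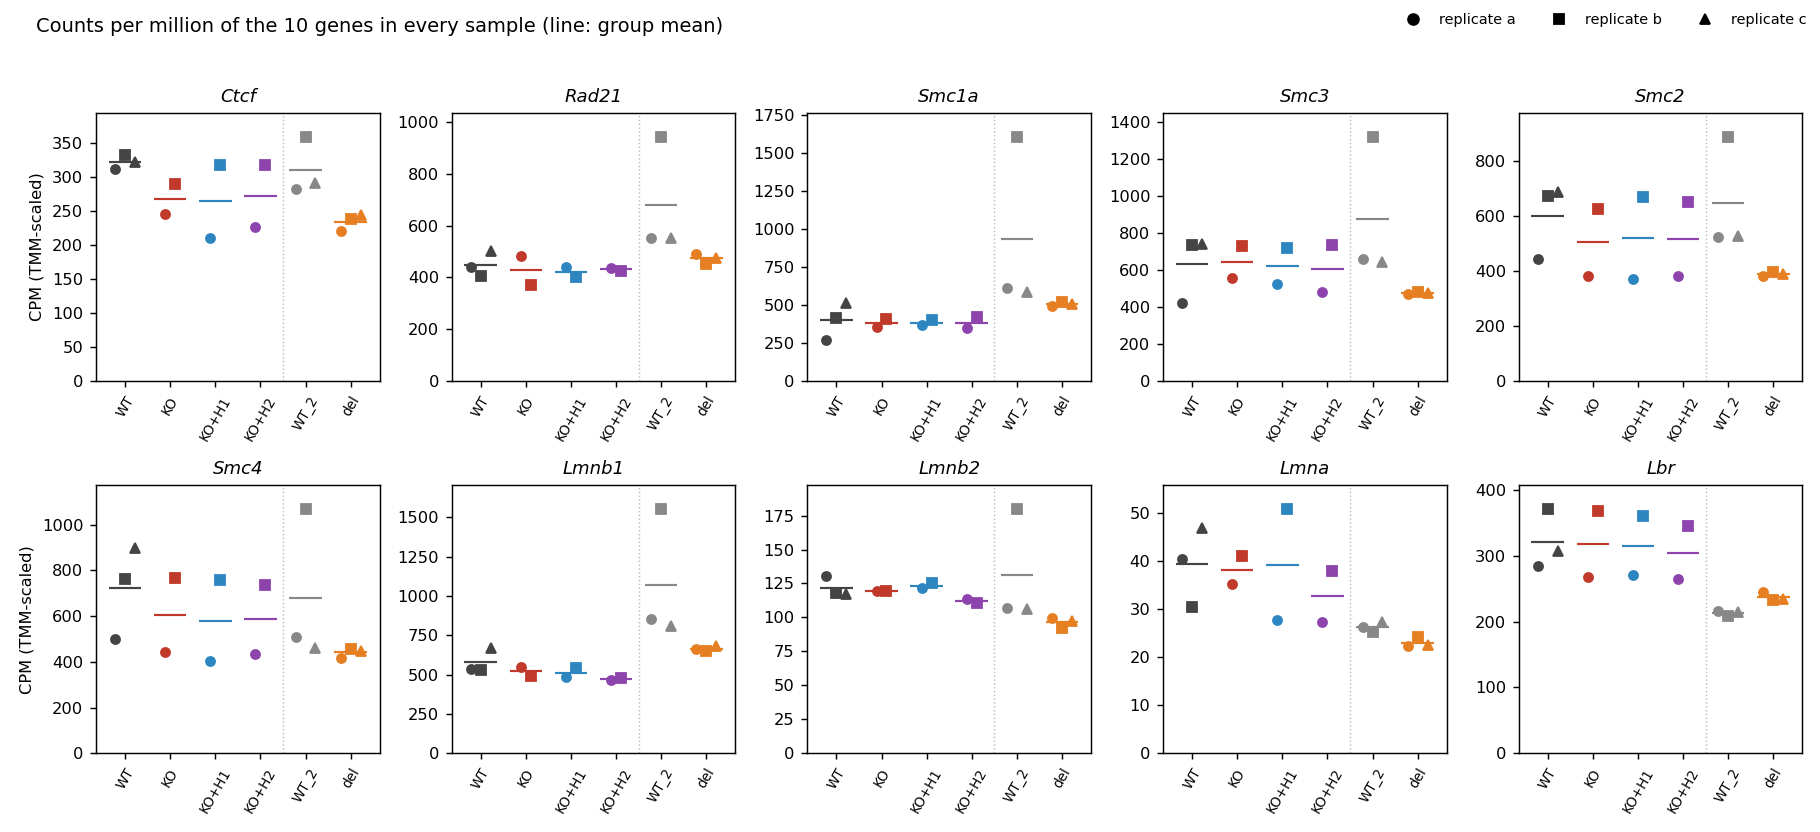
CPM of each gene in every sample, with a line for the mean of the group; KO+H1 and KO+H2 are the Hmga1 and Hmga2 add-backs, del is the full deletion, the dotted line separates the 2 experiments, and circles, squares and triangles are replicates a, b and c. The KO-derived groups overlap WT for nearly all genes, and in WT_2 replicate b lies far above a and c for 7 of the 10 genes, such as Smc1a (1602 against 615 and 584 CPM).

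The second question was whether a re-expressed Hmga1 or Hmga2 moved these genes. No member was called in the Hmga1 add-back against WT (0.0144% of all genes called) or in the Hmga2 add-back against WT (0.0647%), and none in either add-back against KO (0% and 0.00719% of all genes) or between the add-backs (0.00719%). At an unadjusted p under 0.05 the only member was Ctcf in the Hmga1 add-back against WT (log2 fold change -0.32 ± 0.14, adjusted p = 0.375, edgeR), 1 of 10 against 13.3% of all genes. Ctcf was at 211 and 318 CPM in that add-back and at 226 and 318 CPM in the Hmga2 add-back, so its batch a samples were low in all 3 KO-derived lines while the batch b samples reached WT in the add-backs. In the Hmga2 add-back no member passed (16.9% of all genes), and against KO none passed in either add-back (2.80 and 5.09% of all genes).

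The B-type lamins were lowest in the Hmga2 add-back. Lmnb1 was at 464 and 478 CPM there, Lmnb2 at 113 and 110.3 CPM, and in both genes these 2 samples lay below every WT, KO and Hmga1 add-back sample. Such an order held for 12.4% of all genes against WT, 9.87% against KO and 6.32% against the Hmga1 add-back, and the log2 fold changes against WT were small (-0.18 ± 0.11 for Lmnb1, adjusted p = 0.425, and -0.15 ± 0.10 for Lmnb2, adjusted p = 0.453, edgeR). Lmnb2 was at 122 and 125 CPM in the Hmga1 add-back, and Lmnb1 at 484 and 541 CPM. Against KO, the intervals of the add-back differences included 0 for all 10 genes. The narrowest were those of Lbr, which was at 271 and 361 CPM in the Hmga1 add-back and 265 and 345 CPM in the Hmga2 add-back.

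For several members the batches lay further apart than the genotypes did. In the 4 genotypes of the KO experiment, all 4 samples of batch b lay above all 4 samples of batch a for 5 members (Smc2, Smc4, Smc3, Lbr and Smc1a; 18.0% of all genes did) and below them for Rad21 (15.3% of all genes). The log2 difference of batch b over batch a was 0.61 to 0.90 for Smc4, 0.61 to 0.85 for Smc2, 0.39 to 0.80 for Smc3, 0.38 to 0.46 for Lbr and 0.12 to 0.60 for Smc1a, and -0.38 to -0.04 for Rad21. Thus 2 subunits of the cohesin ring were higher in batch b and the third was lower. The 10 genes used as mitosis markers were also higher in batch b (summed level 5251 to 5551 CPM) than in batch a (4042 to 4525 CPM), and their part in the difference was not tested. In bulk samples such as these, fewer cells of a type and less RNA per cell cannot be told apart. The letters stand for the day of library preparation and the flow cell, which cannot be told apart from the day of harvest. With summed counts in place of TMM, Smc1a overlapped between the batches, Lmnb2 was also lower in batch b, and the other 5 kept their direction.

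**Figure D3:**
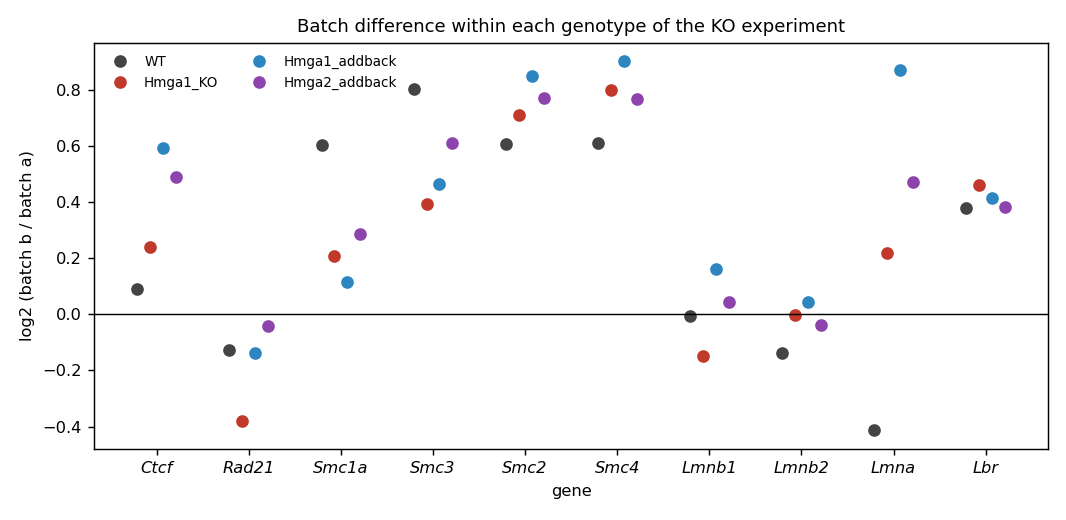
Log2 ratio of batch b to batch a for each gene, with 1 point for each of the 4 genotypes of the KO experiment. Smc2 and Smc4 lie at 0.61 or above in all genotypes, Rad21 lies below 0 in all, and Lmna spreads from -0.41 in WT to 0.87 in the Hmga1 add-back.

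The third question was whether removal of the whole Hmga1 coding sequence altered these genes. In every full-deletion sample, 9 of the 10 members were lower than in every WT_2 sample, and Lbr was higher in every one. Over all genes, 24.6% were lower in this way and 26.7% higher. None of the 10 was called at adjusted p under 0.01 and 2-fold (0.0687% of all genes), and none reached an adjusted p under 0.05 (8.25% of all genes). At an unadjusted p under 0.05, 5 of 10 passed, all lower: Ctcf, Rad21, Smc3, Smc2 and Lmnb1 (edgeR; 37.0% of all genes passed). The median log2 fold change of the members was -0.57, against 0.04 for all genes.

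This size rested on WT_2 b. Its level divided by the mean of WT_2 a and c was 2.67 for Smc1a, 2.20 for Smc4, 2.02 for Smc3, 1.86 for Lmnb1, 1.71 for Rad21, 1.68 for both Lmnb2 and Smc2 and 1.25 for Ctcf, while Lbr (0.965) and Lmna (0.939) were not raised. For Smc1a only 1.14% of all genes had a higher ratio. Without WT_2 b the log2 differences of the raised members were smaller but their error fell by more: the median of the 10 was -0.23, none was called at 2-fold (2.75% of all genes called), and 8 of 10 had an adjusted p under 0.05, 7 lower and Lbr higher, where 42.5% of all genes did. With TMM the members' direction was the same with and without that library. Since the groups did not overlap for any member, leaving out 1 library could hardly change it.

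Without WT_2 b, Smc3 and Smc2 differed most. Smc3 was at 658, 1316 and 645 CPM in WT_2 and at 470.3, 481 and 475 CPM in the full deletion, 73.0% of the mean of WT_2 a and c. Its log2 fold change was -0.88 ± 0.28 (adjusted p = 0.0754) with all samples and -0.45 ± 0.05 without WT_2 b (adjusted p = 6.63e-07, edgeR). The 3 full-deletion samples lay closer together than WT_2 a and c did. Smc2, an SMC subunit of both condensin complexes as Smc4 is, was at 524, 885 and 528 CPM in WT_2 and at 382, 396 and 389 CPM in the full deletion, or 73.9% of WT_2 a and c (-0.73 ± 0.21, adjusted p = 0.0669; without WT_2 b -0.44 ± 0.05, adjusted p = 1.19e-06, edgeR).

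Its partner Smc4 did not show the same size. Smc4 was at 510.2, 1066 and 459.7 CPM in WT_2 and at 418, 457 and 448 CPM in the full deletion, so the highest full-deletion sample lay just under WT_2 c. The log2 fold change was -0.62 ± 0.31 (adjusted p = 0.178) and -0.14 ± 0.06 without WT_2 b (adjusted p = 0.0553, edgeR). Without WT_2 b, the other cohesin subunits lay between Smc4 and the pair of Smc3 and Smc2. Smc1a was at 615, 1602 and 584 CPM in WT_2 and at 495, 519 and 509 CPM in the full deletion (-0.88 ± 0.38, adjusted p = 0.136; without WT_2 b -0.24 ± 0.05, adjusted p = 0.000753, edgeR). Rad21 was at 551, 940.0 and 551 CPM and at 492, 452 and 477 CPM (-0.52 ± 0.22, adjusted p = 0.131; without WT_2 b -0.22 ± 0.05, adjusted p = 0.00232, edgeR).

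Ctcf was at 283, 359 and 292 CPM in WT_2 and at 221, 238 and 244 CPM in the full deletion. Its log2 fold change was -0.41 ± 0.13 (95% interval -0.70 to -0.11, adjusted p = 0.0730) with all samples and -0.29 ± 0.05 without WT_2 b (adjusted p = 0.000299, edgeR).

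At the lamina, Lmnb1 was at 857, 1551 and 812 CPM in WT_2 and at 661, 651 and 681 CPM in the full deletion (log2 fold change -0.69 ± 0.25, adjusted p = 0.0969; without WT_2 b -0.33 ± 0.05, adjusted p = 3.13e-05, edgeR). Lmnb2 was at 107, 179.5 and 106 CPM and at 99.3, 92.2 and 97.7 CPM (-0.44 ± 0.21; without WT_2 b -0.15 ± 0.06, adjusted p = 0.0523, edgeR). The lamin B1 RNA thus stood at 79.6% of WT_2 a and c and the lamin B2 RNA at 90.4%. Lmna, in which WT_2 b was not raised, was at 26.3, 25.2 and 27.3 CPM and at 22.3, 24.1 and 22.7 CPM (-0.19 ± 0.10, adjusted p = 0.197; without WT_2 b -0.22 ± 0.08, adjusted p = 0.0447, edgeR). Lbr was the only member with higher values: 217, 208 and 214 CPM in WT_2 and 245, 233 and 234 CPM in the full deletion, or 110.2% of WT_2 a and c (0.16 ± 0.09, adjusted p = 0.250; without WT_2 b 0.14 ± 0.05, adjusted p = 0.0410, edgeR). With TMM, the receptor RNA thus lay above WT_2 and the B-type lamin RNAs below it. With summed counts, Lmnb2 overlapped WT_2.

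**Figure D4:**
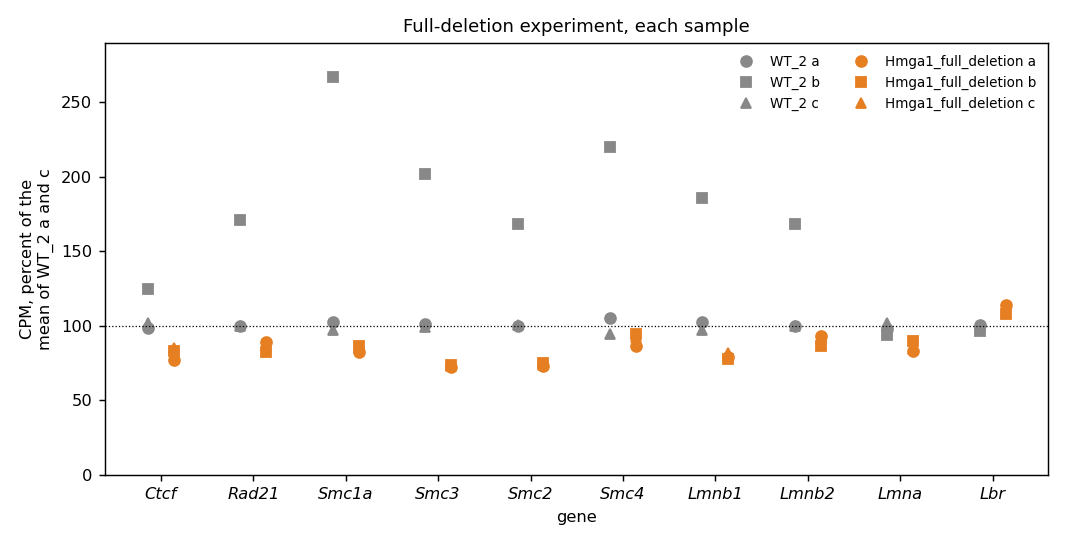
CPM of each gene in 3 WT_2 and 3 full-deletion samples, as a percent of the mean of WT_2 a and c (dotted line at 100). The full-deletion samples lie close together and below the line for 9 genes, at a mean of 73.0% for Smc3, and above it for Lbr, while WT_2 b reaches 2.67 times that mean for Smc1a.

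These directions depend in part on the scaling. The full-deletion samples had larger TMM factors than WT_2, and with summed counts in place of TMM the median over all genes was 0.32 on the log2 scale (0.19 without WT_2 b) instead of 0.04. With that scaling 4 members stayed lower in every full-deletion sample (Smc1a, Smc3, Smc2 and Lmnb1), Lbr stayed higher and 5 overlapped, where 10.6% of all genes were lower and 47.5% higher in this way. Without WT_2 b, 3 members were then lower at an adjusted p under 0.05 (Smc3 at -0.29, Smc2 at -0.27 and Lmnb1 at -0.16), Lbr was higher (0.30, edgeR), and 48.9% of all genes passed. Relative to the median of all genes in that fit, the 9 members stood at -0.48 (Smc3) to -0.17 (Smc4) and Lbr at 0.11.

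The summed level of the 10 mitosis markers was 4502, 6493 and 4426 CPM in WT_2 and 3862 to 3960 CPM in the full deletion. It was highest in WT_2 b. The 10 pluripotency markers were likewise at 5138, 7881 and 4940 CPM in WT_2 and at 4626 to 4716 CPM in the full deletion. The differentiation genes were at 64.5, 93.6 and 65.8 CPM in WT_2 and at 73.6 to 75.4 CPM in the full deletion, so not below WT_2 a and c. At an adjusted p under 0.05 (edgeR) none of the 10 mitosis markers passed with all samples. Without WT_2 b 6 of them were lower and none higher (42.5% of all genes passed). The part of dividing cells in the values of Smc2, Smc3 and Lmnb1 was not tested. The summed fibroblast genes were at 161 to 189 CPM in WT_2 and 97.9 to 107 CPM in the full deletion. Among them, Dcn and Postn were at 0 in all 6 samples and Vim was at 76.6 to 173 CPM. With all samples Vim was the 1 lower gene of the 5 tested (log2 fold change -0.95 ± 0.11, adjusted p = 0.0171, edgeR; 8.25% of all genes passed). Acta2 (0.68 ± 0.27) and Tagln (0.35 ± 0.19) lay above 0 and did not pass.

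The frameshift and the full deletion were then compared directly, as the KO effect minus the full-deletion effect in a joint fit. With all samples no member differed at an adjusted p under 0.05 (0.375% of all genes), the largest being Smc3 (1.09 ± 0.37 on the log2 scale, adjusted p = 0.223, edgeR). Without WT_2 b, 1 of 10 differed, Smc3 (0.68 ± 0.12, adjusted p = 0.0140, edgeR), where 5.13% of all genes did. Smc1a followed (0.44 ± 0.14, adjusted p = 0.0834), and for Ctcf the difference was 0.04 ± 0.15 (95% interval -0.28 to 0.36). The experiments also differed in their wild-type levels: Smc1a was at 402 CPM in WT and 934 CPM in WT_2, and Lmnb1 at 579 and 1073 CPM (599.7 and 834 CPM over WT_2 a and c alone), so experiment and allele cannot be told apart in this comparison.

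**Figure D5:**
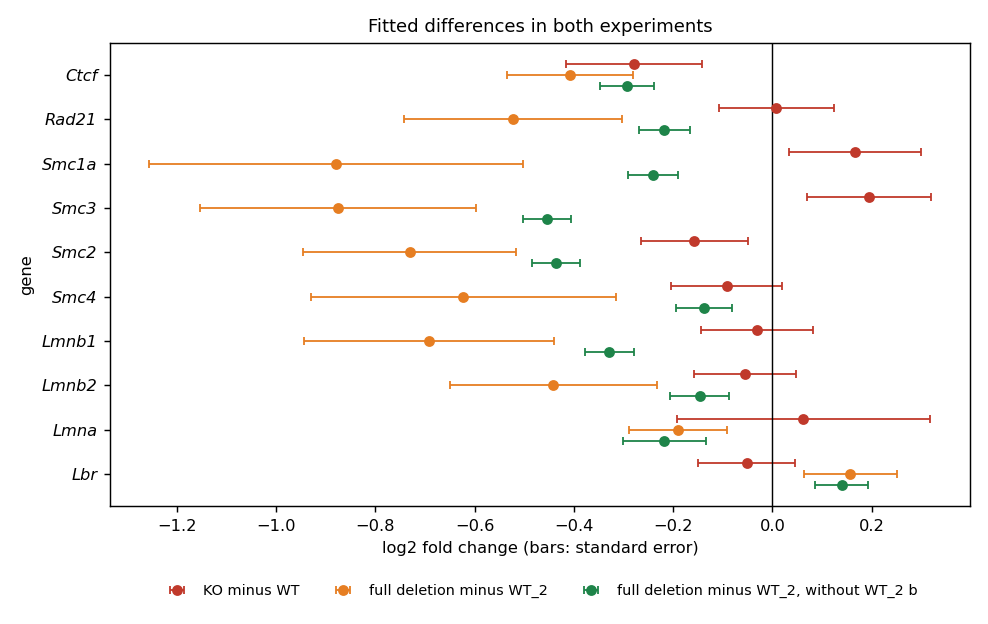
Log2 fold change with its standard error for each gene in KO against WT, in the full deletion against WT_2 and in the full deletion without WT_2 b. Ctcf is lower in all 3, Smc3 and Smc1a lie above 0 in KO and below 0 in the full deletion, and the errors shrink where WT_2 b is left out (Smc3 from 0.28 to 0.05).

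Partners of the members were read from lists of related genes. Of 14 cohesin loaders, regulators and other subunits, none had an adjusted p under 0.05 in KO or in the full deletion with all samples. Without WT_2 b 7 were lower and 1 higher in the full deletion, with a median of -0.15, in a fit where 42.5% of all genes passed. Counts without WT_2 b in the lists that follow stand against that share. In KO the share was 0.0647%, and in the full deletion with all samples it was 8.25%. The lower cohesin partners included Nipbl, which loads cohesin (-0.43 ± 0.05, adjusted p = 4.33e-06), and Stag2, a core cohesin subunit (-0.38 ± 0.06, adjusted p = 2.40e-05, edgeR). The higher one was Pttg1, which encodes securin, the inhibitor of the protease that cuts cohesin (0.40 ± 0.12, adjusted p = 0.0130, edgeR). In KO, Pttg1 was at 0.66 ± 0.24 (adjusted p = 0.345) and Stag2 at -0.26 ± 0.10 (adjusted p = 0.362, edgeR).

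Germ-line forms of cohesin and CTCF were read in the same way. Of 4 tested genes, 1 was higher in KO at an adjusted p under 0.05, where 0.0647% of all genes passed. It was Smc1b, the meiotic counterpart of Smc1a (log2 fold change 1.86 ± 0.20, adjusted p = 0.0224, edgeR), and the median of the 4 was 0.96. Against WT, Smc1b was at 0.96 ± 0.20 in the Hmga1 add-back (adjusted p = 0.125) and at 1.86 ± 0.20 in the Hmga2 add-back (adjusted p = 0.0122, edgeR). Ctcfl, the germ-line relative of Ctcf, was at 1.53 ± 0.42 in KO (adjusted p = 0.221). In the full deletion with all samples Smc1b was at -0.68 ± 0.37 (adjusted p = 0.212, edgeR). Rec8, the meiotic counterpart of Rad21, was the only one of the 4 with an adjusted p under 0.05 (0.89 ± 0.19, adjusted p = 0.0400, edgeR), where 8.25% of all genes passed. Without WT_2 b, Rec8 was at 0.71 ± 0.12 and Ctcfl at 0.81 ± 0.23 (adjusted p = 0.00880, edgeR). These were the only 2 of the 4 with an adjusted p under 0.05 in that fit (42.5% of all genes), so Smc1b did not pass there either.

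Of 6 other condensin subunits, 2 were lower and 2 higher at an adjusted p under 0.05 in the full deletion without WT_2 b, and with all samples 1 was lower, Ncapg2 (-0.53 ± 0.12, adjusted p = 0.0415, edgeR). Without WT_2 b the lower ones were Ncapg2 (-0.44 ± 0.07, adjusted p = 4.90e-05) and Ncapd3 (-0.24 ± 0.06), both of condensin II, and Ncaph2 of the same complex was higher (0.20 ± 0.06, adjusted p = 0.0103, edgeR). Of 7 genes of the SMC5/6 complex and its kin 3 were lower, a share near that of all genes (42.5%): Nsmce4a (-0.51 ± 0.07), Smc5 (-0.39 ± 0.06) and Smc6 (-0.29 ± 0.05). Of 7 other boundary factors 2 were lower, Yy1 (-0.34 ± 0.06) and Zfp143 (-0.27 ± 0.06), and 2 were higher, among them Maz (0.26 ± 0.07). With all samples none of the SMC5/6 and boundary genes passed, and none of these 3 lists had a gene with an adjusted p under 0.05 in KO.

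Nuclear envelope genes went both ways. Of 23, 7 were higher and 4 lower in the full deletion without WT_2 b, with a median of 0.16, and their share was near the 42.5% of all genes. With all samples 1 passed, Zmpste24, the protease that matures prelamin A (-0.52 ± 0.13, adjusted p = 0.0496, edgeR; -0.39 ± 0.07 without WT_2 b). In KO none passed after adjustment, and the smallest p was that of Sun1, an envelope protein that links lamins to the cytoskeleton (0.45 ± 0.11, adjusted p = 0.171, edgeR). Of the 10 pluripotency markers, 2 were higher and 3 lower in the full deletion without WT_2 b, none with all samples and none in KO. Of 5 fibroblast genes tested 1 was higher and 1 lower without WT_2 b, and 1 was lower with all samples. For differentiation genes the median of 9 tested was -0.96 in KO with none past adjustment (summed level 98.2 to 133 CPM in WT and 71.1 to 75.4 CPM in KO), and 2 of 8 were higher in the full deletion without WT_2 b and none with all samples.

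Across the 15 samples, centred within each experiment, several pairs of members varied together. Pearson's r of log2 CPM was 0.96 for Smc2 and Smc4 and 0.94 for Smc1a and Smc3, or 0.95 and 0.89 without WT_2 b. Pairs from different complexes reached similar values, with 0.92 for Smc3 and Smc2 and 0.91 for Ctcf and Smc2 (0.90 and 0.89 without WT_2 b). Rad21 did not follow its ring partners once WT_2 b was left out, at 0.42 with Smc1a and 0.20 with Smc3 (0.82 and 0.67 with all samples). The genes most like Ctcf among 13049 were Tmpo, Ppp4r3a and Cisd2 (r = 0.97 each), and those most like Lmna were Gins2 (0.91), Bbs2 (0.87) and Mrpl47 (0.87). These values describe 15 libraries that share batches, genotypes and 1 library that stands apart.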

How the data were processed

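Total RNA of mouse ESC was sequenced as stranded, ribosome-depleted, single-end libraries. The values are the counts deposited by the authors, who removed the first 3 bases, mapped to mm9 using bowtie through QuasR, placed reads with several hits at 1 of them at random, and assigned same-strand reads to UCSC known genes (bcl2fastq 2.17 and Bowtie in the submitters' processing notes). After a filter at a mean count of 10, 13912 genes remained for the KO experiment and 13098 for the other. TMM scaling and edgeR's quasi-likelihood test (edgeR 4.0.16, R 4.3.3) were run over all of them, with Benjamini-Hochberg adjustment. All 9 samples of the KO experiment entered 1 fit with the batch letter as a term, since the study used these letters as batches of library preparation and sequencing. The 6 samples of the full-deletion experiment, sequenced in 1 lane, were fitted without it. The difference between both effects was tested in a joint fit of 15 samples over 13050 genes. A standard error is the fold change divided by the square root of F.

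All 10 members are named with their values in KO and full deletion, members at an unadjusted p under 0.05 in the other comparisons, from each related list at most the 3 genes with the smallest p in KO and in full deletion with all samples, and the 3 genes most correlated with Ctcf and Lmna. The members, the lists and the leaving out of WT_2 b were chosen with earlier results of these data known. Alternatives were DESeq2 1.42.0 (Wald test, size factors), limma-trend (limma 3.58.1, prior count 2), summed-count scaling, other count filters, only the groups compared, other thresholds, the batch or replicate term, and leaving out each sample. The tests were tested on simulated data. Figures were drawn with matplotlib 3.10.9. Same-lettered samples of the KO experiment deviated together in every pair (correlations across genes of 0.15 to 0.76). In groups of 2 the deviations of a and b mirror each other, so for pairs without WT both letters give the same correlation. No 2 samples were alike within counting noise (lowest chi-square per degree of freedom 4.08).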

Additional observations from a re-analysis of the deposited data

Results flagged for a closer look

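The effect on Smc3, a subunit of the cohesin ring, differed between the frameshift KO and the full deletion by 0.68 on the log2 scale (SE 0.12, adjusted p = 0.0140, edgeR) when WT_2 b was left out. It was at 0.20 ± 0.13 in KO and -0.45 ± 0.05 in the full deletion. The KO value ranged from 0.049 (without WT a) to 0.35 (without WT b) with 1 sample left out and was 0.024 without the replicate block. With WT_2 b the difference was 1.09 ± 0.37 and did not pass (adjusted p = 0.223). With summed counts as scaling and without WT_2 b it was 0.49 ± 0.12 (adjusted p = 0.0377). Smc3 was 1 of 10 members to differ without WT_2 b under TMM, where 5.13% of all genes did. Experiment and allele cannot be told apart in this comparison. The groups hold 2 or 3 samples, too few for a test of single outlying samples.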

How the results depend on the processing

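The count of members called at an adjusted p under 0.01 and 2-fold was 0 in all comparisons under all alternatives run. In KO against WT, Rad21 (0.01) changed sign with DESeq2 size factors (-0.0016), the DESeq2 Wald test (-0.0014) and no replicate block (-0.072), and ranged from -0.13 to 0.14 with 1 sample left out. Without the replicate block Smc1a was at -0.077 and Lmna at -0.049. With 1 sample left out, Ctcf (-0.28) ranged from -0.45 (without WT b) to -0.086 (without WT a), Smc3 (0.20) from 0.049 (without WT a) to 0.35 (without WT b), Smc1a from -0.020 to 0.37, Lmna from -0.34 (without WT b) to 0.60, Smc4 from -0.20 to 0.025, Lmnb2 from -0.12 to 0.024 and Lmnb1 from -0.13 to 0.073. The cause was not tested. Members at an unadjusted p under 0.05 then numbered 3 if WT b was left out, 1 if WT a was, and 1 with only the groups compared. In the main fit they numbered 0, where 12.6% of all genes passed. The share of all genes under these alternatives was not taken, so the counts are no result about the members. In the full deletion, Lmna was at 0.089 with summed counts, and without WT_2 b Smc4 (0.026) and Lmnb2 (0.018) changed sign with summed counts. Members at an adjusted p under 0.05 numbered 4 with DESeq2 with all samples (Ctcf, Smc3, Smc2 and Lmnb1, all lower; 24.7% of all genes) and 0 with limma-trend. The letters did not pair the full-deletion samples (correlations from -0.05 to 0.07). With a replicate block all the same, Smc3 was at -0.79 and the count stayed at 0, and without WT_2 b it was 9 of 10 (41.7% of all genes). The number of members whose effects differed between the frameshift and the full deletion was 1 without WT_2 b under TMM (5.13% of all genes). It was also 1 under summed counts, where the share of all genes was not taken. The alternatives without WT_2 b joined to another setting were added after seeing the data. Members at an unadjusted p under 0.05 in the full deletion numbered 5 with all samples (37.0% of all genes) and 10 without WT_2 b (49.9% of all genes). They numbered 8 without WT_2 a or c, 2 without deletion a, 3 without deletion b or c, and 3 with summed counts, where the median was -0.23. For these last fits the share of all genes was not taken, so their counts are no result about the members. Each line is 1 clone and groups hold 2 or 3 cultures.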
